A study of Mus musculus with 8 samples.

Results

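Imprinted genes are expressed mainly from a single parental copy, which is set by a control region that carries DNA methylation on only the maternal or only the paternal copy. The imprinted loci described here are 7 windows of the mouse genome (build mm9) around 9 genes: H19 and Igf2, Dlk1 and Meg3, Kcnq1ot1, Igf2r, Gnas, Mest and Grb10. Their members are the peaks of TET1, an enzyme that oxidises 5-methylcytosine, that overlap a window. Overlapping or adjoining peaks of the 6 lists were joined into regions, and 106 of the 137027 merged regions of the genome fell in the 7 windows, which span 801 kb in all. The windows were H19-Igf2 (chr7:149750000-149863000, 33 regions), Dlk1-Meg3 (chr12:110680000-110835000, 24 regions), Kcnq1ot1 (chr7:150390000-150492000, 9 regions), Igf2r-Airn (chr17:12865000-13055000, 21 regions), Gnas-Nespas (chr2:174100000-174182000, 8 regions), Mest (chr6:30678000-30709000, 5 regions) and Grb10 (chr11:11820000-11948000, 6 regions). The rule used positions only, not peak heights.

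TET1 was mapped by ChIP-seq with an HA antibody in mouse embryonic stem cells, all of genotype HA-Tet1, in which the endogenous protein carries an HA tag. The cells are named as E14TG2a in the series design and as strain C57BL/6N in the sample labels. Permeabilised cells were mock treated (3 libraries) or incubated for 20 min with RNase H1 at 0.2 U/ul and Nuclease S1 at 0.05 U/ul (3 libraries, called nuclease-treated), then crosslinked with disuccinimidyl glutarate and formaldehyde. RNase H1 removes RNA that is paired with DNA, and Nuclease S1 cuts single-stranded nucleic acid. The sample labels name only RNAse H1 as the agent, no library had either enzyme alone, and the libraries of a group share 1 pooled input. The labels do not say whether the replicates were separate cultures, so p-values reflect only how much these samples differ, which may be technical. The lists held 73602 to 83601 peaks in mock and 62161 to 74404 in nuclease-treated libraries, with a median summit coverage of 16 to 18 fragments. Coverage below is the fragment coverage at a peak's summit divided by the genome-wide background of that library, and is written as times background. That background was taken as the peak caller's most frequent local background at the library's peaks, 1.929 to 2.253 fragments.

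TET proteins start the removal of DNA methylation, and at imprinted loci the methylation of the control region is normally kept in the early embryo while the rest of the genome is reset. In H19-Igf2 and Dlk1-Meg3 the control region is methylated on the paternal copy. In Kcnq1ot1, Igf2r-Airn, Gnas-Nespas, Mest and Grb10 a control region is methylated on the maternal copy, and in the first 3 of these it is linked to a noncoding or antisense RNA (Kcnq1ot1, Airn, Nespas). ChIP-seq of this kind does not tell the parental copies apart.

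Promoter sequences are shown for 4 of the genes, Igf2r and Grb10 for their CpG content, since CpG is where TET1 substrates lie, and Mest and Meg3 for a motif of imprinted control regions. RefSeq promoter windows (GRCm38.p6, 250 bases before to 50 bases after each start) were found for 8 of the 9 genes, as 18 windows, with none for H19. These coordinates are of another build than the peaks and cannot be set beside them, and whether a peak lies at one of these starts was not determined. The windows held a median of 15 CpG dinucleotides, against 7 over all 32851 windows of the table. The 250 bases before the start of Igf2r (GRCm38.p6, chr17:12769707-12769956, minus strand), which encodes a receptor that carries IGF2 to lysosomes, held 27 CpG. The same stretch of Grb10 (chr11:12037421-12037670, minus strand), which encodes an adaptor that binds insulin and growth factor receptors, held 40. That was the most among the 18 windows, and another Grb10 window (chr11:12027972-12028221) held 8. The fewest was 0, in a Meg3 window. Capitals mark CpG.
Igf2r: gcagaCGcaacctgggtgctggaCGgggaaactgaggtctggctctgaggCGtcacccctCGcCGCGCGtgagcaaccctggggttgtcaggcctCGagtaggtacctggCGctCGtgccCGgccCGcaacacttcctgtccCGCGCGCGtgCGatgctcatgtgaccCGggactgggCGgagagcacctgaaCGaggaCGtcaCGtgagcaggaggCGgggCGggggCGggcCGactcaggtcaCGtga
Grb10: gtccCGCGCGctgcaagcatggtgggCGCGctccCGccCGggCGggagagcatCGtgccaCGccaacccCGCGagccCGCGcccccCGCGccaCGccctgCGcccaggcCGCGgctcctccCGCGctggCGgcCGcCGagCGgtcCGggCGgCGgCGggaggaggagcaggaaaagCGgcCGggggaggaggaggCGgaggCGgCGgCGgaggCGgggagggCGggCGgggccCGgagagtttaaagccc
The motif TGCCGC, bound by the imprint-maintaining zinc finger protein ZFP57 when methylated, was searched on both strands (as TGCCGC or GCGGCA, which do not overlap each other in the windows shown). It was found in 5 of the 18 windows (27.8%), from Grb10, Igf2, Meg3 and Mest, and in 11.6% of all windows of the same length. Of the 5, 2 are Mest windows that nearly coincide and hold the same matches. The match is a description of these letters and not of binding. The motif holds a CpG, and the shares were not compared among windows of like CpG content. Upstream of Mest (GRCm38.p6, chr6:30737800-30738049, plus strand), which encodes a hydrolase-like protein, the motif occurred at 2 places, and upstream of Meg3 (chr12:109540746-109540995, plus strand), a noncoding RNA gene, at 1. Another Mest window (chr6:30733256-30733505) and another Meg3 window (chr12:109545148-109545397) held no match. Capitals mark the motif.
Mest: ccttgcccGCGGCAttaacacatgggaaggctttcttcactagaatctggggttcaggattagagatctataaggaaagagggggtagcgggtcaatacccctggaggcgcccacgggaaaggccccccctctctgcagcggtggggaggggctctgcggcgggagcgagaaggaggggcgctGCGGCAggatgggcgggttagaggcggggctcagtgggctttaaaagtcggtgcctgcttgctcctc
Meg3: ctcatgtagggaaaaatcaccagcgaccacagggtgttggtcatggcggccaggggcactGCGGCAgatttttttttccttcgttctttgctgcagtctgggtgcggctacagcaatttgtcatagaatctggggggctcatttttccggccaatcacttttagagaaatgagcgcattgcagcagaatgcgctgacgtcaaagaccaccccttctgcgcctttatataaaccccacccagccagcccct

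**Figure D1:**
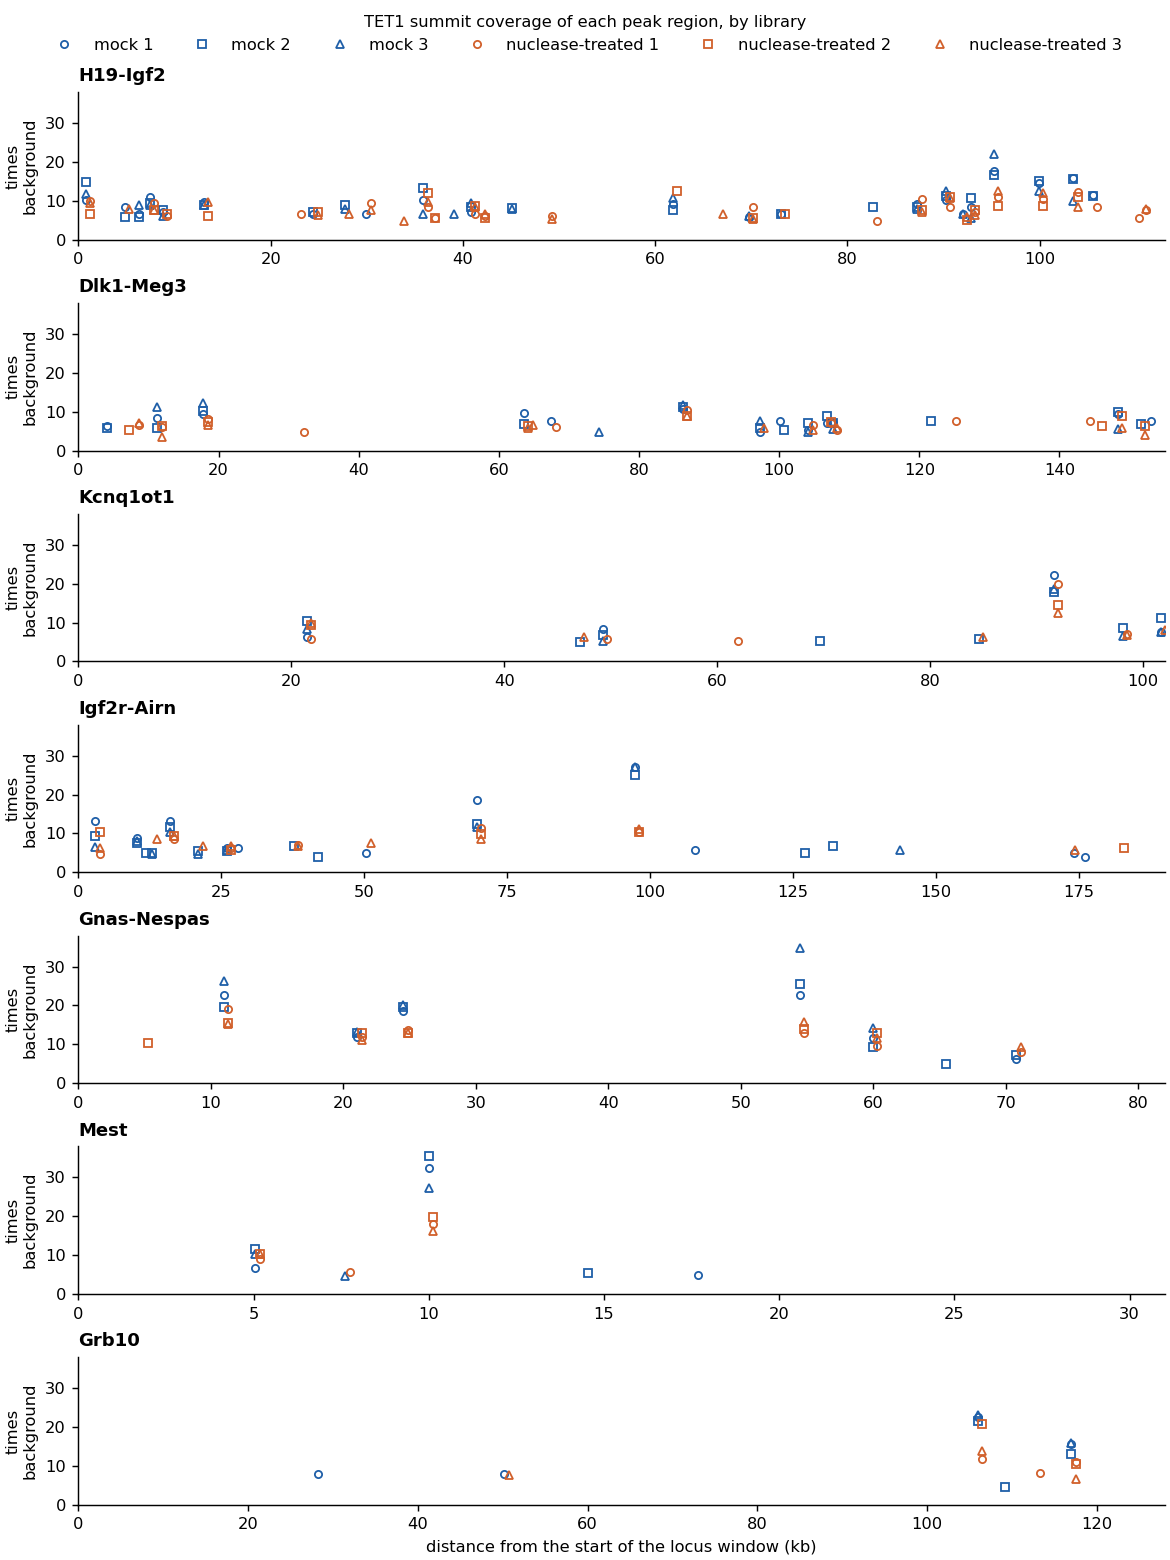
TET1 summit coverage (times background, vertical axis) of each merged region against the distance from the start of its locus window (kb, horizontal axis), with 1 symbol per library that had a peak there. Mock libraries are blue and nudged to the left, nuclease-treated ones are orange and nudged to the right. The tallest mock symbols stand in Mest, Gnas-Nespas and Igf2r-Airn, where no nuclease-treated symbol exceeds 20 times background.

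TET1 occupancy differed between the loci in mock cells. Each locus held at least 1 region with a peak in every library. H19-Igf2 was the most peak-rich window, with 18.9 mock peaks per 100 kb, and Grb10 the sparsest, with 2.34. Peaks covered 14.6% of the Gnas-Nespas window, 12.6% of H19-Igf2 and 10.3% of Mest in mock libraries, and between 2.81% and 3.97% of the other 4. By the mock coverage of its strongest region, Mest stood first (31.7 ± 4.14, SD, n = 3), followed by Gnas-Nespas (27.6 ± 6.31), Igf2r-Airn (26.5 ± 1.19), Grb10 (22.4 ± 0.777), Kcnq1ot1 (19.6 ± 2.26), H19-Igf2 (18.8 ± 2.88) and Dlk1-Meg3 (11.2 ± 0.540). Among neighbours in that order, the 3 libraries did not overlap between Igf2r-Airn and Grb10 and between H19-Igf2 and Dlk1-Meg3. All the other neighbours overlapped.

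After the nucleases TET1 coverage was lower at many regions of these loci, by about as much as over the genome, and the strongest region of Igf2r-Airn fell furthest. Only the 29 of 106 regions (27.4%, against 21.6% of all regions) that had a peak in all 6 lists have a coverage in every library. In a limma fit of log2 coverage over all 29613 such regions of the genome, 11 of the 29 were lower in nuclease-treated libraries (37.9%) at a Benjamini-Hochberg adjusted p under 0.05, against 36.0% of all regions. None of the 29 was higher, against 0.206% of all regions. The median log2 change of the 29 was −0.37 with a range from −1.31 to 0.11, and 26 were below 0. The median over all regions was −0.35, and the share of them below 0 was not determined. The share of the loci's regions called lower was therefore close to the share over the genome. On the scale of the authors' fold enrichment 18 of the 29 were lower, against 55.4% of all regions, and without nuclease-treated replicate 3 the coverage fit called 5 of 30, against 27.7% of all regions.

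Because the genome as a whole shifted by −0.35, each log2 value was also centred on the median of all regions. On that scale 2 of the 29 regions were lower, 1 in Igf2r-Airn and 1 in Gnas-Nespas, against 4.63% of all regions. None was higher, against 1.67% of all regions, and 16 lay below and 13 above 0. The number at an unadjusted limma p under 0.05 was 13 before and 5 after centring. The share of all regions at that cut was not determined on either scale.

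Among regions with a peak in every list, the share called lower was larger at higher coverage, in the loci as in the genome. A region that lost its peak in any library has no value here, which can remove falls among weak regions from these counts. Of the regions with a mean coverage under 10 times background over the 6 libraries, 2 of 10 in the loci were lower, against 5.75% of all. Between 10 and 15 times background 3 of 12 were lower, against 34.7% of all. At 15 times background or more 6 of 7 were lower, against 79.0% of all. Median log2 changes in the loci were −0.12, −0.37 and −0.57 in these 3 ranges, beside −0.11, −0.38 and −0.62 over the genome. With so few regions per range, a difference between the loci and the genome was not tested.

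**Figure D2:**
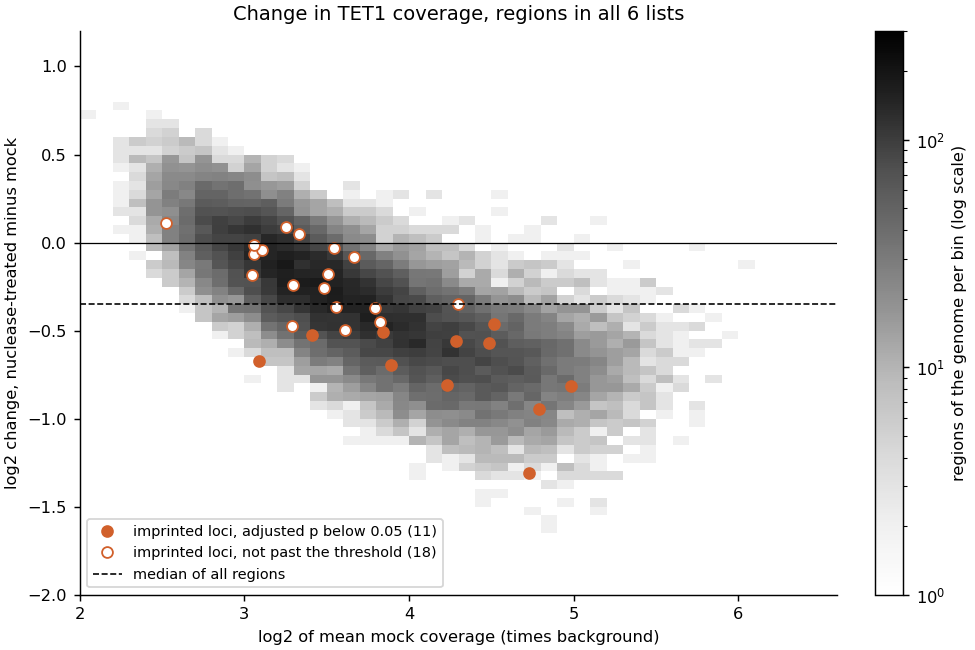
Log2 change of TET1 coverage (nuclease-treated minus mock, vertical axis) against log2 of the mean mock coverage (times background, horizontal axis) for regions with a peak in all 6 lists. Grey bins count regions of the whole genome on a log scale, orange circles are the 29 regions of the imprinted loci, filled for the 11 with a limma adjusted p under 0.05, and the dashed line is the median of all regions (−0.35). The lowest circle, at −1.31, is the Igf2r-Airn region.

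The local background recorded by the authors' peak caller, which takes in the pooled input, moved with this change. Its mean was higher in nuclease-treated than in mock libraries at 25 of the 29 regions, as it was at 82.6% of all such regions, with medians of 1.51 and 1.09 times the genome-wide background. Coverage as used here is not divided by it, and its part in the result was not tested.

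Coverage of all 3 nuclease-treated libraries lay below that of all 3 mock libraries at 14 of the 29 regions, against 44.7% of all regions, and at 0 of the 29 did it lie above, against 1.39% of all regions. The sequence under peaks was shorter in the same sense at 13 of the 29, against 30.7% of all regions.

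Igf2r-Airn, whose Airn RNA runs antisense to Igf2r and is needed to silence it on the paternal copy, held the region with the largest fall. At chr17:12961850-12963607 coverage was 27.1, 25.1 and 27.2 times background in mock replicates 1 to 3 and 10.5, 10.4 and 11.2 in the nuclease-treated ones. The groups did not overlap and each was tight. The means were 26.5 ± 1.19 and 10.7 ± 0.439 (SD, n = 3), a log2 change of −1.31 ± 0.16 (SE, limma adjusted p = 1.36e-06), and −0.96 after centring (adjusted p = 0.00091). Leaving out each library in turn kept the centred adjusted p between 0.00083 and 0.0109. In mock libraries this region stood at the 91.2 percentile of coverage among the 29613 regions. Its change stood at the 0.334 percentile of all changes, and at the 1.13 percentile among regions of 15 times background or more. The peaks there covered 1433 bp on average in the mock libraries and 963 bp after the nucleases, with overlap between the groups. Mean local background at this region was 1.01 in mock and 1.68 in nuclease-treated libraries, and its part in the result was not tested.

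The region next in strength in that locus, chr17:12934241-12935820, had 18.6, 12.5 and 11.7 times background in mock and 11.4, 9.85 and 8.49 in nuclease-treated libraries. All nuclease-treated values lay below all mock values, with a log2 change of −0.51 (limma adjusted p = 0.0494) and −0.16 after centring (adjusted p = 0.675). The call was lost without mock replicate 1 (adjusted p = 0.33) or 2 (0.052), without nuclease-treated replicate 2 (0.0987) or 3 (0.194), and with no trend in the variance prior (0.0613). The ratio of the stronger to the weaker of these 2 regions was 1.45, 2.0 and 2.32 in mock libraries and 0.917, 1.05 and 1.32 in nuclease-treated ones. The strong region thus lost its lead over its neighbour in nuclease-treated replicate 1, and kept a smaller one in replicates 2 and 3 (exact two-sided permutation p = 0.1, the smallest that 3 against 3 libraries allow). Another region of this locus, chr17:12880510-12882303, had a log2 change of −0.37 (limma adjusted p = 0.151, and 0.00232 on the authors' fold), with means of 11.8 and 9.09 times background. At chr17:12875408-12875981 all 3 mock libraries had a peak (8.88, 7.62 and 7.98 times background) and no nuclease-treated library did. Peaks in the Igf2r-Airn window numbered 12, 14 and 9 in mock and 6, 6 and 10 in nuclease-treated libraries (exact permutation p = 0.2).

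**Figure D3:**
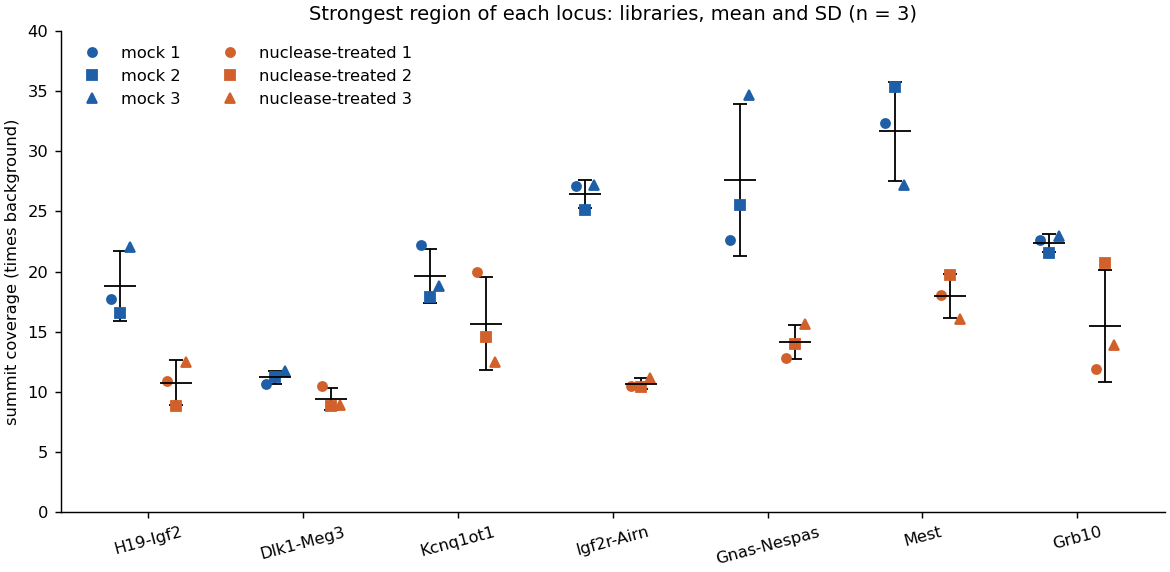
Summit coverage (times background, vertical axis) of the strongest region of each locus, by its mean over the 6 libraries, with 1 symbol per library and horizontal bars for the group mean and SD (n = 3). The mock and nuclease-treated libraries overlap only in Kcnq1ot1. Igf2r-Airn drops from 26.5 to 10.7.

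Gnas-Nespas, where Gnas encodes the stimulatory G-protein alpha subunit and Nespas is an antisense RNA, had the other region that stayed lower after centring. Coverage at chr2:174152561-174156739 was 22.6, 25.5 and 34.7 times background in mock and 12.8, 14.0 and 15.6 in nuclease-treated libraries. The groups did not overlap, and mock replicate 3 was the highest. The log2 change was −0.95 ± 0.17 (SE, limma adjusted p = 0.000109), and −0.59 after centring (adjusted p = 0.0385). The centred call was lost without mock replicate 3 (adjusted p = 0.129) and without nuclease-treated replicate 1 (0.116) or 2 (0.0587). The peak calls there were also split into more pieces. Mean local background was 1.05 in mock and 1.70 in nuclease-treated libraries, and its part in the calls was not tested. The region held 1, 2 and 1 peaks in the mock libraries and 4, 3 and 3 in the nuclease-treated ones, and the sequence under them went from 4145, 3904 and 4090 bp to 2538, 2295 and 3044 bp. Summits of the mock libraries lay within 124 bp of each other, and those of the nuclease-treated libraries within 1858 bp. The latter were at 174154068, 174152874 and 174154732 in replicates 1 to 3, with replicate 2 the furthest away.

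At chr2:174122770-174126626 coverage was 18.6, 19.7 and 20.2 times background in mock and 13.8, 13.0 and 12.9 in nuclease-treated libraries. Those values gave a log2 change of −0.56 (limma adjusted p = 0.00863), and −0.21 after centring (adjusted p = 0.462). At chr2:174109652-174112642 it was 22.6, 19.7 and 26.3 against 19, 15.6 and 15.2, with a log2 change of −0.46 (limma adjusted p = 0.0279). That call was lost without mock replicate 1 (adjusted p = 0.072) or 3 (0.118), without nuclease-treated replicate 2 (0.0902) or 3 (0.106), and with no trend in the variance prior (0.0631). Its mean covered sequence was 2452 bp in the mock libraries and 2478 bp after the nucleases. The ratio of the 2 strongest regions of Gnas-Nespas was 1.0, 1.29 and 1.32 in mock and 0.675, 0.9 and 1.03 in nuclease-treated libraries, with overlap between the groups (exact permutation p = 0.2).

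Mest had the highest mean summit coverage of the 7 loci in both groups. At chr6:30686777-30689361 it was 32.4, 35.4 and 27.2 times background in mock and 18.1, 19.7 and 16.1 in nuclease-treated libraries, with no overlap. The log2 change was −0.82 ± 0.15 (SE, limma adjusted p = 0.000185), and −0.46 after centring (adjusted p = 0.0656, and 0.0204 without mock replicate 3). The sequence under peaks went from 2585, 1649 and 2371 bp to 632, 880 and 531 bp, although the summits of all 6 libraries lay within 112 bp. The called peak was thus shorter around a summit that kept its place. Mean local background there was 1.51 in mock and 1.94 in nuclease-treated libraries, and its part in the length of the call was not tested. The other Mest region found in every library, chr6:30682676-30683549, had 9.54 and 9.89 times background in mock and nuclease-treated libraries and a log2 change of 0.09 (adjusted p = 0.789). That small value turned to −0.14 on the scale of the authors' fold enrichment and to −0.15 without mock replicate 1. The ratio of the 2 regions was 4.87, 3.04 and 2.64 in mock and 2.0, 1.9 and 1.56 in nuclease-treated libraries (exact permutation p = 0.1).

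Grb10 had 2 regions in every list and both fell. The stronger, chr11:11925327-11927119, was even in mock libraries (22.6, 21.5 and 23.0 times background) and spread in nuclease-treated ones (11.9, 20.7 and 13.9). Nuclease-treated replicate 2 was close to mock. The log2 change was −0.57 (limma adjusted p = 0.0128), and the call was lost without nuclease-treated replicate 1 (adjusted p = 0.115) or 3 (0.0606). The other, chr11:11936371-11938130, had 15.5, 13.0 and 16.0 times background in mock and 10.9, 10.4 and 6.70 in nuclease-treated libraries. Its log2 change was −0.70 (limma adjusted p = 0.00824), and the adjusted p was 0.089 without nuclease-treated replicate 3. The sequence under its peaks went from 1630, 1734 and 1706 bp to 671, 819 and 649 bp. Mean local background there was 1.07 in mock and 1.94 in nuclease-treated libraries, and its part in these lengths was not tested. Neither region passed the threshold after centring (−0.22, adjusted p = 0.469, and −0.34, adjusted p = 0.304).

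The control regions of H19-Igf2 and Dlk1-Meg3 are the paternally methylated ones. H19 is a noncoding RNA gene and Igf2 encodes an insulin-like growth factor. In H19-Igf2 10 regions had a peak in every list. Of these, 9 had a log2 change below 0, where the median over all regions was −0.35. The test called 1 lower, chr7:149843673-149847226, with 17.8, 16.6 and 22.1 times background in mock and 10.9, 8.81 and 12.5 in nuclease-treated libraries. The log2 change was −0.81 ± 0.19 (SE, limma adjusted p = 0.00111), and −0.46 after centring (adjusted p = 0.136). Its summits lay within 63 bp of each other in mock libraries and within 1148 bp in nuclease-treated ones. The wider spread came from nuclease-treated replicate 1, at 149845682, while replicates 2 and 3 had theirs at 149846830 and 149846625. How common such a spread is over the genome was not determined. The neighbouring region chr7:149849788-149850440 had a log2 change of −0.45 (limma adjusted p = 0.0639). It was called lower without mock replicate 3 (−0.53, adjusted p = 0.0466), with −log10 q of at least 5 (0.0397) and on the authors' fold (0.0467). At chr7:149853223-149854216 the log2 change was −0.37 (limma adjusted p = 0.168), and −0.60 without mock replicate 3 (adjusted p = 0.0223). The ratio of the first to the second of these 3 regions went from 1.21, 1.09 and 1.74 to 1.04, 1.0 and 1.04.

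For chr7:149853223-149854216 the authors' fold enrichment gave another answer than coverage. Mean fold was 9.67 in mock and 4.99 in nuclease-treated libraries (limma on log2 fold, adjusted p = 0.000431), while mean local background was 1.02 and 1.74. Coverage there overlapped between the groups, at 16.0, 15.7 and 9.86 against 12.3, 10.9 and 8.49 times background. H19-Igf2 also held a region with a peak in all 3 mock libraries and no other (chr7:149756288-149756866, 6.66, 5.82 and 8.92 times background). It held the reverse case as well, a region with a peak in every nuclease-treated library and no mock one (chr7:149791945-149792298, 6.18, 5.70 and 6.70 times background). Both were weak regions.

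Dlk1, which encodes a transmembrane protein related to Notch ligands, and Meg3 lie in a window with 3 regions in every list, all of low coverage. At chr12:110697795-110698498 coverage was 9.32, 10.3 and 12.2 times background in mock and 8.08, 7.26 and 6.70 in nuclease-treated libraries. The log2 change was −0.53 (limma adjusted p = 0.0485), and −0.17 after centring. The call was lost without mock replicate 2 (adjusted p = 0.0873) or 3 (0.178) and without nuclease-treated replicate 1 (0.0594), 2 (0.105) or 3 (0.147). At chr12:110691042-110692125 it was 8.43, 5.82 and 11.3 against 6.18, 6.22 and 3.57, with overlap and a log2 change of −0.67 (limma adjusted p = 0.0395). That call was lost without mock replicate 1 (adjusted p = 0.0962) or 3 (0.189) and without nuclease-treated replicate 3 (0.279). The strongest region, chr12:110766243-110766829, had 10.7, 11.2 and 11.7 against 10.5, 8.81 and 8.93 times background. Its log2 change was −0.26 (adjusted p = 0.329), which turned to 0.10 after centring.

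Kcnq1ot1, an RNA antisense to the potassium channel gene Kcnq1, was the locus without a called change in the coverage fit over all 6 libraries. Coverage at chr7:150481075-150482486 was 22.2, 17.9 and 18.8 times background in mock and 20.0, 14.5 and 12.5 in nuclease-treated libraries. The groups overlapped through nuclease-treated replicate 1, and the log2 change was −0.35 ± 0.18 (SE, limma adjusted p = 0.129), or 0.0055 after centring. The change lay at the genome's median shift, and the test does not show that the locus was unaffected. Without nuclease-treated replicate 1 the region was called lower, at −0.54 (adjusted p = 0.0348), as it was on the scale of the authors' fold (−0.57, adjusted p = 0.0103). Peaks there covered 1340 bp on average in the mock libraries and 1231 bp after the nucleases. At chr7:150411319-150411962 the means were 8.32 and 8.29 times background, a log2 change of −0.02 (adjusted p = 0.967) that became 0.34 after centring.

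Ratios of the 2 strongest regions were formed for all 7 loci. All 3 nuclease-treated ratios lay below all 3 mock ratios in 3 of 7 loci (H19-Igf2, Mest and Igf2r-Airn), against 18.4% of 100 kb windows of the genome. They lay above in 1, Dlk1-Meg3 (1.14, 1.09 and 0.962 in mock, 1.29, 1.21 and 1.33 in nuclease-treated libraries), against 4.63% of windows. The loci are 31 to 190 kb long, and the windows were not matched to them in length or peak number, here or below.

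Over whole windows, the mean number of peaks differed less between the groups than the sequence under them. The 7 loci together held 67, 71 and 53 peaks in mock and 66, 50 and 63 in nuclease-treated libraries. The means were 63.7 ± 9.45 and 59.7 ± 8.50 (SD, n = 3), so the latter was 93.7% of mock, against 86.5% for the whole lists. Without nuclease-treated replicate 2 the difference of −4 peaks turned to 0.833, and with all lists shortened to equal length to 1.33. In none of the 7 loci did the groups' peak numbers separate, with all nuclease-treated libraries below all mock ones, against 9.82% of 100 kb windows of the genome. Mean peak numbers were lower after the nucleases in 4 loci and higher in H19-Igf2, Gnas-Nespas and Grb10.

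The sequence under peaks in the 7 loci was 49049, 53001 and 45197 bp in the mock libraries and 36890, 32789 and 39848 bp after the nucleases, 74.4% of mock against 78.5% for the whole lists. The groups did not overlap. By locus, all nuclease-treated libraries had less covered sequence than all mock libraries in 4 of 7 (H19-Igf2, Mest, Gnas-Nespas and Grb10), against 38.9% of windows. Mest kept 41.1% of its mock covered sequence, Grb10 64.0%, H19-Igf2 77.1% and Gnas-Nespas 81.3% (exact two-sided permutation p = 0.1 in each). The highest coverage in the window was lower in all nuclease-treated libraries in 6 of 7 loci, all but Kcnq1ot1, against 67.6% of windows.

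**Figure D4:**
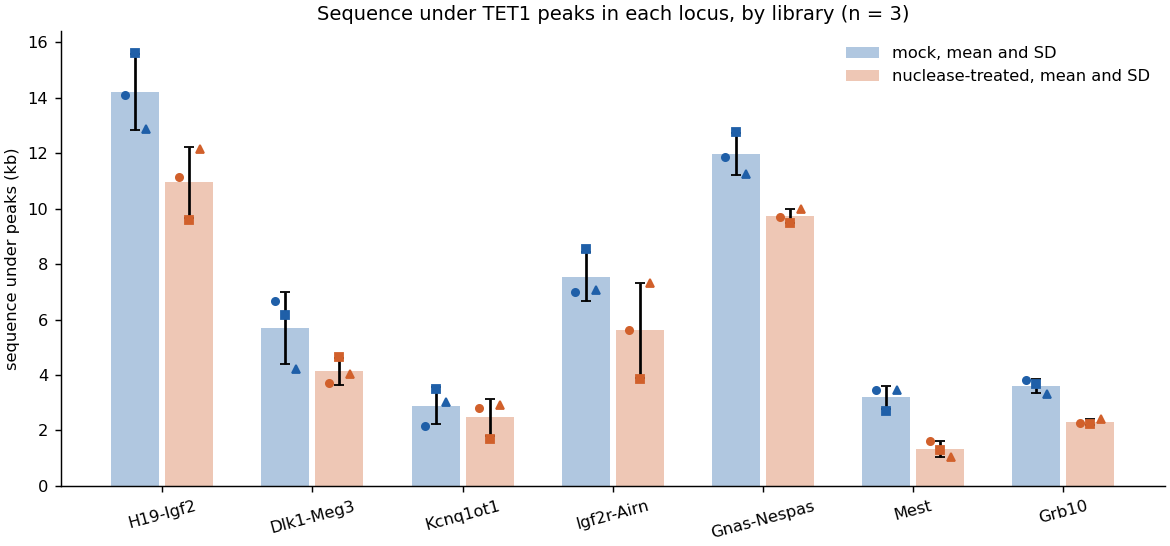
Sequence under TET1 peaks (kb, vertical axis) in each locus window, with bars for the group means, error bars for the SD (n = 3) and 1 symbol per library (circle, square and triangle for replicates 1, 2 and 3). The groups do not overlap in H19-Igf2, Gnas-Nespas, Mest and Grb10, and overlap in Dlk1-Meg3, Kcnq1ot1 and Igf2r-Airn.

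Presence and absence of peaks in the loci was spread much as over the genome. Of the 106 regions, 36 were in 1 list only (34.0%, as over all regions), 2 were in every mock and no nuclease-treated list (1.89%, against 2.35% of all regions), and 1 was the reverse (0.943%, against 0.42%). The regions without a value in every library were not tested. Peaks in nuclease-treated lists only were seen at 8 of 33 regions in H19-Igf2 (24.2%) and 2 of 21 in Igf2r-Airn (9.52%), against 19.4% of all regions. Peaks in mock lists only were seen at 3 (9.09%) and 10 (47.6%), against 25.2% of all regions, and 9 of those 10 were in 1 list only.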

How the data were processed

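TET1 ChIP-seq of 3 mock and 3 nuclease-treated libraries was analysed from peak lists on mm9. Per the submitters' processing notes, MACS2 2.1.1 (the peak caller), Bowtie2 2.2.8, bedtools 2.25.0, SAMtools 1.3.1, deepTools 2.4.3 and Picard were used, with parameters that the sources used here do not give. By the peak names in the files, the authors called peaks in each library separately against its pooled input. The fold enrichment deposited for a peak is the ratio of coverage to local background at its summit, after the same small constant is added to both. Its p-value and q-value were deposited by the authors on the −log10 scale. The authors' score is the −log10 q times 10 without its decimals. The input libraries and positions of other imprinted genes were not analysed here.

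Summit coverage was solved from fold and p as a whole number of fragments (matched within 0.001 of the −log10 p, 1 peak unmatched) and divided by the library's most frequent local background. Depth beyond that is unknown, and summits of 16 to 18 fragments limit single values. Peaks that overlapped or adjoined were merged. Regions in all 6 lists were fitted with limma 3.58.1 (R 4.3.3, trended prior) on log2 coverage, with Benjamini-Hochberg adjustment over all 29613 at 0.05. Values per locus were compared by exact permutation over 20 label orders, with a smallest p of 0.1, and set beside 100 kb windows holding a mean of 2 peaks or more. Scripts were tested on simulated data. Named regions are the 3 of highest mean coverage per locus among those in all 6 lists, and those in every list of 1 group and none of the other. The members and lists were chosen with earlier results of these data known. Alternatives were median centring, the authors' fold, a replicate block, −log10 q of at least 5, equal list lengths of 62161 peaks, merging across 500 bp, summits inside the locus, 50% of a region covered, an untrended prior and leaving out each library. Equal lengths for the fit, centred fits without each library, the ranges of coverage, region ratios and the covered sequence per region were added after seeing the data.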

Additional observations from a re-analysis of the deposited data

How the results depend on the processing

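The count of 11 lower regions became 2 with median centring and 18 with the authors' fold enrichment, and 5 to 11 when each library was left out, lowest without nuclease-treated replicate 3. Other settings gave 9 to 11. Deviations of same-numbered libraries were barely correlated (0.0134, −0.00489 and 0.0379), which cannot tell whether those libraries shared a culture or day. The replicate block gave 10 (34.5%, against 36.3% of all regions), without chr12:110697795-110698498 (limma adjusted p = 0.0546). Under every setting run except centring, 5 regions were lower (chr17:12961850-12963607, chr2:174152561-174156739, chr2:174122770-174126626, chr6:30686777-30689361 and chr7:149843673-149847226). The centred count of 2 was 1 to 2 without each library, 1 without nuclease-treated replicate 1 or 2. Without mock replicate 3 the 2 were the regions of Igf2r-Airn and Mest (chr6:30686777-30689361), and the Gnas-Nespas region was lost. The difference of −4 peaks over the loci turned to 1.33 with equal list lengths, and ran from −9.33 to 0.833 without each library, above 0 only without nuclease-treated replicate 2. The difference in covered sequence, −12570 bp, was −15760 bp with −log10 q of at least 5, −10440 bp with equal list lengths, and −14520 to −10610 bp without each library. The mean difference of the strongest summits, −8.47, ran from −8.80 to −7.90 times background without each library. The 29 regions in all lists became 15 when 50% of a region had to be covered. The 2 regions in mock lists only became 1 with −log10 q of at least 5 and 1 with merging across 500 bp. Signs turned for small changes: centring gave 0.34 and 0.0055 at the Kcnq1ot1 regions chr7:150411319-150411962 and chr7:150481075-150482486 and 0.10 at chr12:110766243-110766829. The former Kcnq1ot1 region also turned to 0.032 with the authors' fold, and ran from −0.21 to 0.23 without each library, above 0 without mock replicate 2 (0.15) or 3 (0.0096) or nuclease-treated replicate 1. The Mest region chr6:30682676-30683549 turned to −0.14 with the fold and ran from −0.15 (without mock replicate 1) to 0.25. Differences in peak number turned in H19-Igf2 to −5.33 with −log10 q of at least 5 and ran from −0.333 (without nuclease-treated replicate 1) to 2.17 without each library, turned in Dlk1-Meg3 to 0.333 with equal lengths, and ran in Grb10 from 0.0 (without nuclease-treated replicate 1) to 1.5. Of 495 recomputed values 433 kept their direction and their side of the threshold or stayed within their limits. Some of these could not move, so the count does not measure robustness. The replicate block left every locus difference as it was. The block and the untrended prior left each log2 change as it was and could move only its adjusted p. Where fitted, log2 changes of named regions also stayed the same with −log10 q of at least 5, equal list lengths and merging across 500 bp. The causes were not tested. The depth limits single values to summits of 16 to 18 fragments at the median.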
